A study of Mus musculus with 8 samples.

Results

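The genes described here build and join antigen receptor genes: Rag1, Rag2, Dntt, Prkdc, Dclre1c, Xrcc4, Xrcc5, Xrcc6, Lig4 and Hmgb1. They were taken by symbol from the deposited tables, and where a symbol had several transcripts the transcript with the largest mean read count stood for the gene. All 10 were found among 22878 gene symbols, all 10 passed the filter on low counts, and 2 of them, Dntt and Dclre1c, had several transcripts.

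V(D)J recombination begins when the RAG recombinase, made of RAG1 and RAG2, cuts at recombination signals beside antigen receptor gene segments, with the chromatin protein HMGB1 helping the DNA to bend. The broken ends are held by the Ku heterodimer and the DNA-dependent protein kinase, opened by the nuclease Artemis, extended without a template by terminal deoxynucleotidyl transferase (TdT, encoded by Dntt) and sealed by DNA ligase IV with its partner XRCC4. Common lymphoid progenitors are known for early Rag and TdT expression, while innate lymphoid cells are defined by the lack of a rearranged antigen receptor, and the end-joining proteins serve break repair in all cells.

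The study profiled bone marrow progenitors of C57BL/6 mice by Smart-seq2 RNA sequencing with 50 bp reads, with 2 libraries in each of 4 sorted populations. The PD-1+ population was sorted as Lin-CD127+Flt3-α4β7+ST2-Kit+ cells that were PD-1+ and CCR6-. The CCR6+ population came from the same gate but was PD-1- and CCR6+. The common helper innate lymphoid progenitor (ChILP) population was that gate not divided by PD-1 or CCR6, and common lymphoid progenitors (CLP) were Lin-CD127+Flt3+α4β7-Sca1+Kit+. PD-1+ and CCR6+ cells were enriched before the sort by magnetic capture of α4β7+ cells, whereas ChILP and CLP were enriched by lineage depletion. Population and route of enrichment therefore cannot be told apart when one of the first 2 populations is set against ChILP or CLP. Whether both libraries of a population came from separate mice is not stated in the labels, so the p-values measure the spread between these libraries, which may be technical.

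Libraries held 7685191 to 13997891 reads assigned to genes. Levels are given as deposited RPKM, which are reads scaled to transcript length and library size, and fold changes come from edgeR's quasi-likelihood test on the read counts, fitted over 13619 genes in all 8 libraries, with Benjamini-Hochberg adjusted p below 0.05 as the threshold. The gate markers largely followed the labels: Flt3, the receptor that separates CLP from the other gates, was at 5.10 to 10.3 RPKM in PD-1+, CCR6+ and ChILP, against 92.1 and 157 RPKM in CLP. PD-1+ replicate 2 departed from its label, with Ccr6 at 8.11 RPKM and Pdcd1, which encodes PD-1, at 36.3 RPKM, while PD-1+ replicate 1 had 0 and 181 RPKM. CCR6+ replicates 1 and 2 had Ccr6 at 84.2 and 23.6 RPKM and Pdcd1 at 0 and 1.10 RPKM. The comparisons that use these libraries are therefore also given without them.

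The promoters of Rag1, Rag2, Dntt and Xrcc6 are shown first, because these 4 genes carried every edgeR call among the 10 and had higher RPKM in both CLP libraries than in any other. Each is the 300 bases from 250 before to 50 after the RefSeq start site on build GRCm38.p6, printed 5′ to 3′ on the gene's strand: Rag1 at chr2:101649483-101649782, minus strand, Rag2 at chr2:101624462-101624761, plus strand, Dntt at chr19:41029025-41029324, plus strand, and Xrcc6 at chr15:82016119-82016418, plus strand. Rag1 and Rag2 are neighbours on chromosome 2 and are transcribed towards each other. Capitals mark E-boxes (CANNTG, bound by E proteins and other basic helix-loop-helix factors) and CCAAT boxes on either strand (ATTGG on the printed strand).
Rag1 promoter: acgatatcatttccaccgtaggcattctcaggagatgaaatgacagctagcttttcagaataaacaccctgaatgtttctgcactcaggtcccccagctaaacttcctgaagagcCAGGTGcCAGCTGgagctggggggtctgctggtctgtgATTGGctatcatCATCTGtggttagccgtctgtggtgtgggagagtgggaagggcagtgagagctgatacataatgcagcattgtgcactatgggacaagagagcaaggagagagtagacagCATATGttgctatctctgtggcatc
Rag2 promoter: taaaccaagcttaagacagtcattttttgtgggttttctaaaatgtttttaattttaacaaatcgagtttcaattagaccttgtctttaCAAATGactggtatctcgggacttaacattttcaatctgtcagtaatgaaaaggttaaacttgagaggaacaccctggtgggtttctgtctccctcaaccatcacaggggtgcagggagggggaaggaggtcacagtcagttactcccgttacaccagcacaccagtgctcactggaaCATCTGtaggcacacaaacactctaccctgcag
Dntt promoter: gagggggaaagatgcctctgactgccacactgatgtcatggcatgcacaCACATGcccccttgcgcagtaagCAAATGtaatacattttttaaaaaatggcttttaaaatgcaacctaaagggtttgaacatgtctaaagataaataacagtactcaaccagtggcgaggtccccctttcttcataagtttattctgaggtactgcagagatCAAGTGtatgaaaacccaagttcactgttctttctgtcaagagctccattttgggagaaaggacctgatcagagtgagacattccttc
Xrcc6 promoter: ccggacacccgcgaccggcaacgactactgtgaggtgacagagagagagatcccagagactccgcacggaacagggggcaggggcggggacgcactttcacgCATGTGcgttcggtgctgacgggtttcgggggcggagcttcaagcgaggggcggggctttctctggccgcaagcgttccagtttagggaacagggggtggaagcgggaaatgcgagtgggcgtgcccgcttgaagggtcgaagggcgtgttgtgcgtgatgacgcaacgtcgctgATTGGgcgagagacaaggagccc
The 4 start regions had little in common in these letters. The Rag1 window held 4 E-boxes, among them CAGGTG and, right after it, CAGCTG at 135 and 128 bases before the start site, and a CCAAT box. The Rag2 window held 2 E-boxes, the Dntt window 3 and the Xrcc6 window 1, and an E-box was present in 72.3% of 32851 promoter windows of the same length. CAGGTG was in 20.2% and CAGCTG in 16.3% of them, and of the 4 windows the Rag1 window alone held either.

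The base composition also differed between them. GC content was 50.0% for Rag1, 43.0% for Rag2, 42.3% for Dntt and 64.3% for Xrcc6, against a median of 52.7% over all windows. The Xrcc6 window held 3 GC boxes (GGGCGG, either strand, present in 35.7% of windows) and a CCAAT box (37.4% of windows). The Rag1 window held 1 match to TGGGAA, a core bound by Ikaros (25.6% of windows), and 1 to GGAAGT, a core bound by ETS factors (23.8%). The Rag2 and Dntt windows held no CCAAT box, GC box, Ikaros core or ETS core in these letters. None of the 4 windows held a TATA box spelled TATAAA (13.6% of windows) or a FOX core spelled GTAAACA (3.65%). All were searched on both strands, and the 2 named E-box spellings are also counted among the E-boxes. These matches are letters in a window and say nothing of binding. RefSeq windows were matched for 9 of the 10 genes, Prkdc being the one not matched.

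The recombinase genes were far more abundant in CLP than in the other populations. Rag1 (NM_009019), which encodes the catalytic subunit, stood at 0.310 and 0 RPKM in PD-1+, at 0 and 0.0103 RPKM in CCR6+, at 0.0985 and 0 RPKM in ChILP and at 5.21 and 5.85 RPKM in CLP. Those levels rest on 30 and 0 reads in PD-1+, 0 and 1 in CCR6+, 12 and 0 in ChILP and 372 and 571 in CLP. Both CLP libraries were above every other library, and 1 library of each of the other 3 populations had no Rag1 read; 3 reads, the limit that a count of 0 allows, would be 0.0277 RPKM in PD-1+ replicate 2, 0.0421 RPKM in CCR6+ replicate 1 and 0.0292 RPKM in ChILP replicate 2, for counting error only.

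Rag2 (NM_009020), which encodes the regulatory subunit that reads a histone mark of active chromatin, was the more abundant of the pair wherever either was detected. It stood at 0.385 and 0.290 RPKM in PD-1+, at 0 and 0.142 RPKM in CCR6+, at 2.57 and 0.783 RPKM in ChILP and at 18.4 and 29.7 RPKM in CLP. The 4 populations did not overlap in Rag2, with the order CCR6+, PD-1+, ChILP and CLP from low to high. The limit that 0 reads allow in CCR6+ replicate 1 was 0.0827 RPKM. Here and for the genes below, ChILP was not tested against PD-1+ or CCR6+, from which it also differs in route of enrichment. Per length, Rag2 was 1.24 times Rag1 in PD-1+ replicate 1 (19 and 30 reads) and 26.0 times in ChILP replicate 1 (159 and 12 reads), against 3.53 and 5.07 times in the CLP libraries. The other 4 libraries had at most 1 read of Rag1, so no order of the ratio is read from them.

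Dntt (NM_009345) was the most abundant of the 10 genes in CLP and kept a measurable level in every library. Its level was 46.1 and 14.8 RPKM in PD-1+, 4.22 and 11.3 RPKM in CCR6+, 56.9 and 70.5 RPKM in ChILP and 818 and 1449 RPKM in CLP. No 2 populations overlapped, again in the order CCR6+, PD-1+, ChILP and CLP from low to high. In bulk libraries of sorted cells, fewer cells that express a gene and less RNA per expressing cell cannot be told apart. Dntt made up 41.1% and 22.2% of the summed RPKM of the 10 genes in PD-1+, 7.25% and 18.2% in CCR6+ and 35.8% and 43.9% in ChILP, against 79.8% and 82.6% in CLP.

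Dntt is spliced in mice into a short form and a longer form that carries an extra exon. The tables list transcripts of 2130 and 2070 bases (NM_009345 and NM_001043228), and the reads counted on the longer exceeded those on the shorter by 1 and 0 in PD-1+, 0 and 1 in CCR6+, 0 and 1 in ChILP and 18 and 50 in CLP. In CLP these were 0.0966% and 0.111% of the reads of the longer, while its 60 extra bases are 2.82% of its length. Nearly all Dntt reads were thus counted on both transcripts, and the longer one served here only as the row for the gene.

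**Figure D1:**
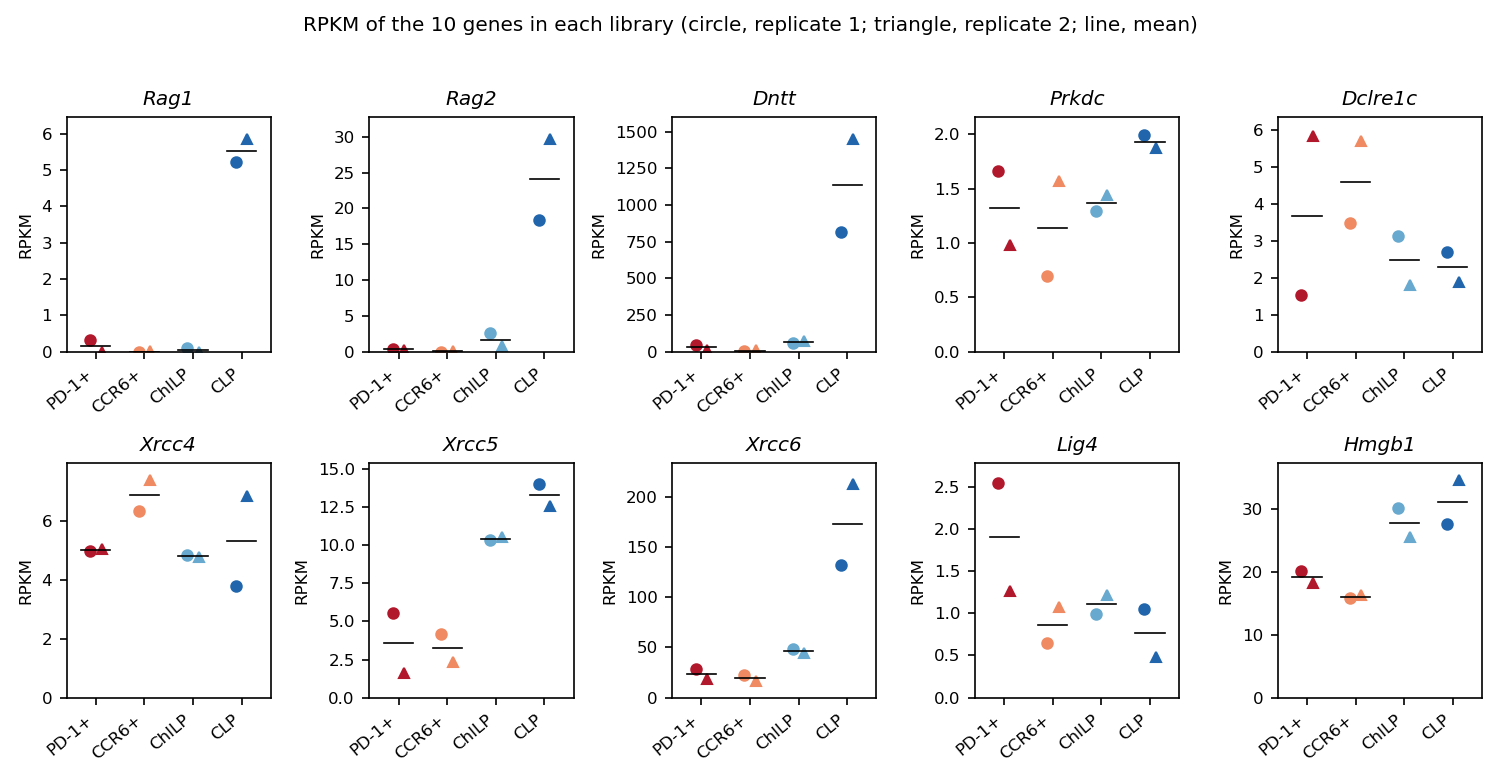
RPKM of each of the 10 genes (vertical axes, linear, each gene on its own scale) in the 2 libraries of PD-1+, CCR6+, ChILP and CLP, with a circle for replicate 1, a triangle for replicate 2 and a line at the mean. Rag1, Rag2, Dntt and Xrcc6 stand high in both CLP libraries (Dntt 818 and 1449 RPKM), while Dclre1c, Xrcc4, Lig4 and Hmgb1 overlap between ChILP and CLP.

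The end-joining genes did not all follow the same pattern. Xrcc6, Xrcc5 and Prkdc were highest in both CLP libraries, as Rag1, Rag2 and Dntt were, and the others were not. Xrcc6 (NM_010247), which encodes the Ku70 subunit that threads onto broken ends, stood at 28.9 and 18.7 RPKM in PD-1+, at 22.8 and 16.1 RPKM in CCR6+, at 48.7 and 44.0 RPKM in ChILP and at 132 and 212 RPKM in CLP. CLP lay above ChILP and ChILP above the other two populations, which overlapped each other. Its partner Xrcc5 (NM_009533), which encodes the Ku80 subunit, stood at 5.57 and 1.59 RPKM in PD-1+, at 4.17 and 2.36 RPKM in CCR6+, at 10.4 and 10.5 RPKM in ChILP and at 14.0 and 12.6 RPKM in CLP. The Ku subunits work as a heterodimer, and their transcripts differed unequally between populations: the ratio of Xrcc6 to Xrcc5 per length was 5.19 and 11.8 in PD-1+, 5.46 and 6.83 in CCR6+, 4.69 and 4.19 in ChILP and 9.42 and 16.9 in CLP. The ratio was lowest in the ChILP libraries and overlapped between PD-1+ and CLP.

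**Figure D2:**
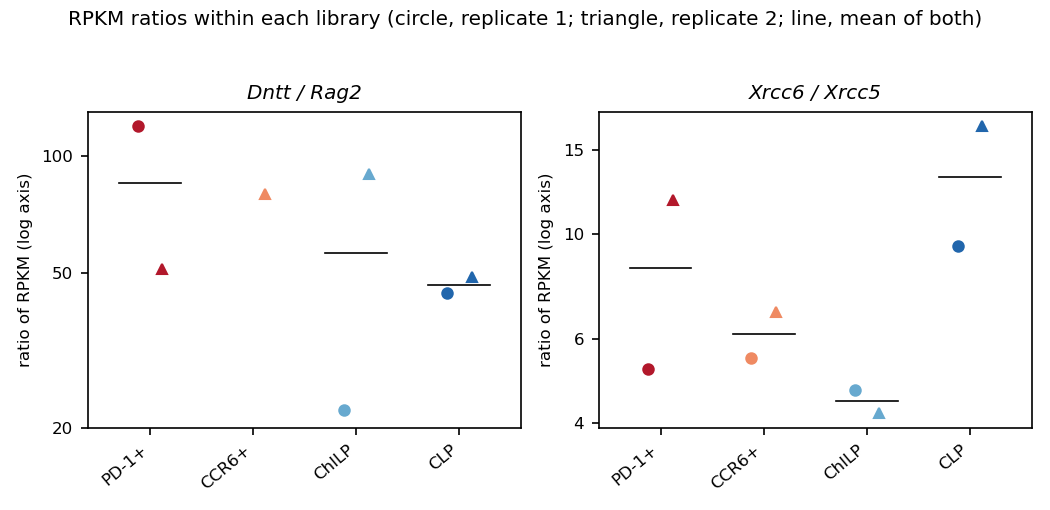
Ratio of Dntt to Rag2 RPKM (left) and of Xrcc6 to Xrcc5 RPKM (right) within each library, on log axes, with a circle for replicate 1, a triangle for replicate 2 and a line at the arithmetic mean where both libraries gave a value. Dntt ranged from 22.2 to 120 times Rag2 in the PD-1+, CCR6+ and ChILP libraries, against 44.4 and 48.8 times in CLP, and CCR6+ replicate 1, with no Rag2 read, has no point on the left.

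The kinase, nuclease and ligase genes were low everywhere. Prkdc (NM_011159), which encodes the catalytic subunit of the DNA-dependent protein kinase, stood at 1.66 and 0.981 RPKM in PD-1+, at 0.701 and 1.58 RPKM in CCR6+, at 1.30 and 1.45 RPKM in ChILP and at 1.99 and 1.88 RPKM in CLP. Dclre1c (NM_146114), which encodes the hairpin-opening nuclease Artemis, stood at 1.54 and 5.83 RPKM in PD-1+, at 3.49 and 5.71 RPKM in CCR6+, at 3.12 and 1.81 RPKM in ChILP and at 2.69 and 1.90 RPKM in CLP. For Prkdc both CLP libraries were above the other 6, whereas the PD-1+ libraries of Dclre1c spanned the range of all the others.

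Lig4 and Xrcc4 encode the ligase and its scaffold. Lig4 (NM_176953) stood at 2.55 and 1.27 RPKM in PD-1+, at 0.642 and 1.08 RPKM in CCR6+, at 0.993 and 1.22 RPKM in ChILP and at 1.053 and 0.486 RPKM in CLP. Xrcc4 (NM_028012) stood at 4.98 and 5.05 RPKM in PD-1+, at 6.35 and 7.41 RPKM in CCR6+, at 4.85 and 4.77 RPKM in ChILP and at 3.81 and 6.85 RPKM in CLP. The PD-1+ libraries were the highest for Lig4, and the CLP libraries of Xrcc4 spanned those of PD-1+ and ChILP.

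Hmgb1 (NM_010439) stood at 20.1 and 18.3 RPKM in PD-1+, at 15.8 and 16.3 RPKM in CCR6+, at 30.1 and 25.5 RPKM in ChILP and at 27.6 and 34.6 RPKM in CLP. ChILP and CLP overlapped, and both lay above PD-1+ and CCR6+. Summed over the 10 genes, RPKM came to 112 and 66.8 in PD-1+, 58.1 and 62.0 in CCR6+, 159 and 161 in ChILP and 1025 and 1755 in CLP.

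ChILP against CLP is one of the study's own comparisons and sets populations enriched by the same route against each other. None of the 10 genes passed the threshold over all genes (edgeR), where 0.0220% of genes did, 0.0147% as lower. Dntt averaged 63.7 ± 9.61 RPKM in ChILP and 1133 ± 447 RPKM in CLP (SD, n = 2 each), a log2 fold change of -4.08 (SE 0.62, edgeR adjusted p = 0.0826). Xrcc6 averaged 46.3 ± 3.28 RPKM in ChILP and 172 ± 56.6 RPKM in CLP, a log2 fold change of -1.82 (SE 0.28, edgeR adjusted p = 0.0854). Rag2 had a log2 fold change of -3.77 (SE 0.79, edgeR adjusted p = 0.196) and Rag1 of -6.68 (SE 1.87, edgeR adjusted p = 0.408).

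The other 6 genes had log2 fold changes in ChILP over CLP between -0.44 for Prkdc and 0.56 for Lig4. By unadjusted edgeR p, 4 of the 10 were below 0.05, against 5.82% of all genes, and DESeq2 called 3, Rag2, Dntt and Xrcc6, against 1.93% of all genes. In RPKM, 6 genes were lower in ChILP with no overlap, against 18.6% of all genes, and no gene was higher without overlap, against 17.0%. The median log2 fold change of the 10 was -0.37, and that of all genes 0.05. Pro-B cell markers moved with the same comparison: all 10 of 10 were lower in ChILP without overlap, none passed, and their summed level was 27.8 to 100 RPKM in ChILP against 299 to 371 RPKM in CLP. Vpreb2, Vpreb3, Igll1, Pax5 and Ebf1 were all at 0 in ChILP replicate 2, and the part of B-lineage transcripts in the Rag and Dntt difference was not tested.

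PD-1+ against CCR6+ compares fractions of the ChILP gate that were enriched by one route. None of the 10 genes passed (edgeR), and 0.00% of all genes did. Dntt averaged 30.4 ± 22.1 RPKM in PD-1+ and 7.75 ± 4.99 RPKM in CCR6+ (SD, n = 2 each), a log2 fold change of 1.87 (SE 0.58, edgeR adjusted p = 0.744), and it was the one gene of the 10 with an unadjusted p below 0.05, against 5.88% of all genes. DESeq2 called Dntt (adjusted p = 0.0291), against 0.940% of all genes. Without the number 2 library of both populations the log2 fold change of Dntt was 3.24 (edgeR adjusted p = 0.0768), and without PD-1+ replicate 1 it was 0.91 (edgeR adjusted p = 1.0).

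None of the other genes had an unadjusted p below 0.05 in PD-1+ against CCR6+. Rag2, with 19 and 16 reads in PD-1+ and 0 and 7 in CCR6+, had a log2 fold change of 2.02 (SE 0.99, edgeR adjusted p = 0.850). Without CCR6+ replicate 1 it was 1.18 (edgeR adjusted p = 1.0). Without CCR6+ replicate 2, which leaves CCR6+ with no Rag2 read, the fitted value was 7.18 (edgeR adjusted p = 0.404), and without the number 2 library of both populations it was 7.29 (edgeR adjusted p = 0.251); fitted values against a library with no read depend on the prior count and give no size. Rag1 had 30 reads in PD-1+ and 1 in CCR6+, a ratio scaled to library size of 25.3 with a counting interval from 4.21 to 1033 at 95% confidence, and all 30 reads lay in PD-1+ replicate 1. The other 7 genes ranged from -0.51 for Xrcc4 to 1.07 for Lig4 on the log2 scale, and the median of the 10 was 0.20, against 0.01 over all genes. In RPKM 4 genes, Rag2, Dntt, Lig4 and Hmgb1, were higher in PD-1+ with no overlap, against 19.0% of all genes, and 1, Xrcc4, was lower, against 14.2%.

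**Figure D3:**
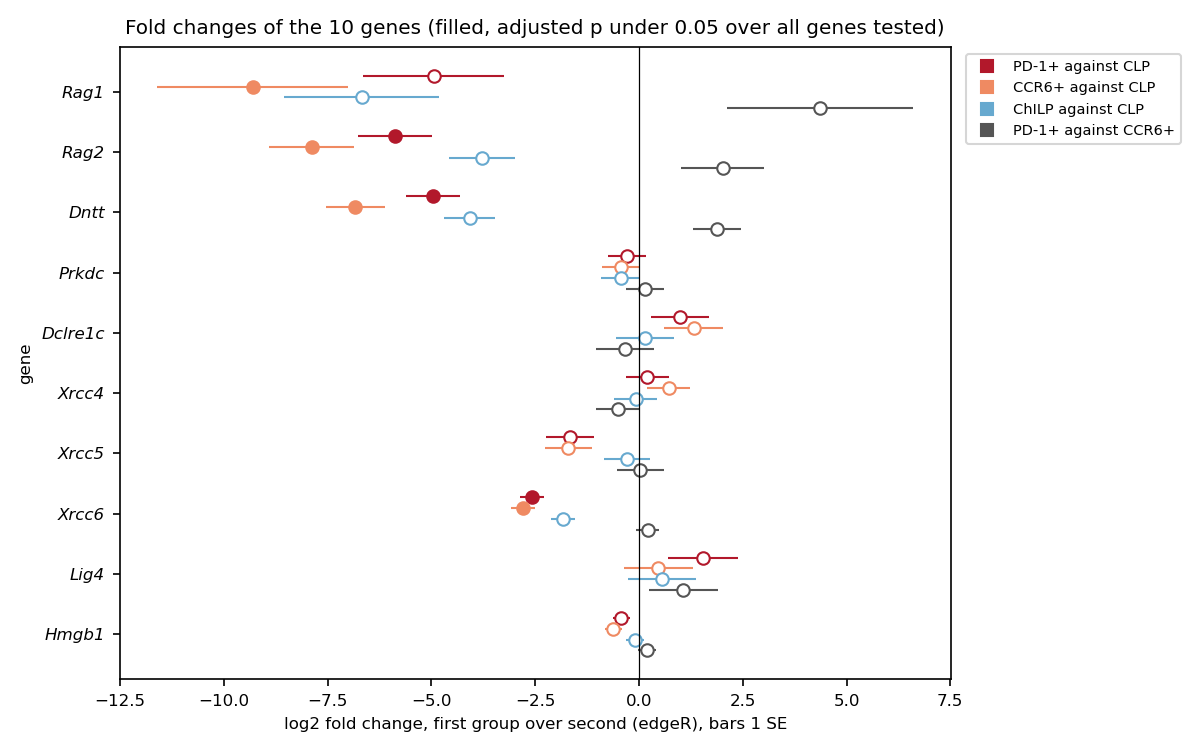
Log2 fold change of each of the 10 genes in PD-1+, CCR6+ and ChILP against CLP and in PD-1+ against CCR6+ (edgeR, bars 1 SE, filled where the adjusted p over all genes was below 0.05). Rag2, Dntt and Xrcc6 are filled in the first 2 comparisons and Rag1 in CCR6+ against CLP, where its fitted value rests on 1 read in CCR6+; the 3 comparisons with CLP share the CLP libraries.

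PD-1+ cells had lower Rag2, Dntt and Xrcc6 than CLP. These 3 of the 10 genes passed (edgeR), all lower, against 7.32% of all genes called in either direction and 2.84% called lower; 0 were called higher, against 4.48%. Rag2 averaged 0.338 ± 0.0672 RPKM in PD-1+ and 24.1 ± 7.96 RPKM in CLP (SD, n = 2 each), a log2 fold change of -5.87 (SE 0.89, edgeR adjusted p = 0.0143). Dntt fell by 4.96 on the log2 scale (SE 0.65, edgeR adjusted p = 0.0106), and Xrcc6, at 23.8 ± 7.22 RPKM in PD-1+ against 172 ± 56.6 RPKM in CLP, fell by 2.58 (SE 0.29, edgeR adjusted p = 0.00992).

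Of the genes that did not pass, Rag1 had a log2 fold change of -4.95 in PD-1+ over CLP (SE 1.71, edgeR adjusted p = 0.124) and Xrcc5 of -1.66 (SE 0.57, edgeR adjusted p = 0.122). The other 5 ranged from -0.42 for Hmgb1 to 1.53 for Lig4, and the median of the 10 was -1.04, against -0.02 over all genes. By unadjusted edgeR p, 5 of the 10 were below 0.05, against 24.2% of all genes, and DESeq2 called the same 3 genes, against 6.81% of all genes called lower (16.9% in either direction). In RPKM, 7 genes were lower in PD-1+ with no overlap, against 38.7% of all genes, and 1, Lig4, was higher, against 18.6%. Without PD-1+ replicate 2, the library that carried Ccr6, the same 3 genes passed, with log2 fold changes of -5.74, -4.40 and -2.36 for Rag2, Dntt and Xrcc6. Without CLP replicate 2 none passed (edgeR adjusted p = 0.0975, 0.0731 and 0.0649 in that order of genes), and 8 of all genes did. Without PD-1+ replicate 1, Rag1 and Xrcc5 passed as well (edgeR adjusted p = 0.0341 and 0.0326), and Dntt had a log2 fold change of -5.90 (edgeR adjusted p = 0.00864).

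In RPKM, the CCR6+ libraries had the lowest Rag2 and Dntt, though neither gene passed between PD-1+ and CCR6+. Set against CLP, 4 of the 10 genes passed (edgeR), all lower, against 11.4% of all genes called in either direction and 4.79% called lower; 0 were called higher, against 6.59%. Dntt, at 7.75 ± 4.99 RPKM in CCR6+ and 1133 ± 447 RPKM in CLP (SD, n = 2 each), fell by 6.84 on the log2 scale (SE 0.71, edgeR adjusted p = 0.00578). Rag2 fell by 7.88 (SE 1.03, edgeR adjusted p = 0.00734), and Xrcc6, at 19.5 ± 4.71 RPKM in CCR6+ and 172 ± 56.6 RPKM in CLP, fell by 2.80 (SE 0.30, edgeR adjusted p = 0.00585). Rag1 passed too (edgeR adjusted p = 0.0395), with 1 read in CCR6+ against 943 in CLP, a ratio scaled to library size of 0.00105 with a counting interval from 2.65e-05 to 0.00585.

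The call for Rag1 was lost when any one library of CCR6+ or CLP was left out (edgeR adjusted p = 0.1003 to 0.158). The fitted fold change of Rag2 rests on 0 and 7 reads in CCR6+: it was -7.05 without CCR6+ replicate 1 (edgeR adjusted p = 0.0264) and -13.05 without CCR6+ replicate 2, where no Rag2 read is left in CCR6+ (edgeR adjusted p = 0.0255), a value that gives no size for the same reason as above. Dntt was at -7.71 without CCR6+ replicate 2 (edgeR adjusted p = 0.0232). Without CLP replicate 2 the call for Rag2 was lost too (edgeR adjusted p = 0.0525), while Dntt and Xrcc6 passed, and 83 of all genes did. Xrcc5 had a log2 fold change of -1.70 (SE 0.57, edgeR adjusted p = 0.0988) and Hmgb1 of -0.62 (SE 0.21, edgeR adjusted p = 0.105). The other 4, Prkdc, Dclre1c, Xrcc4 and Lig4, ranged from -0.44 to 1.32, and the median of the 10 was -1.16, against -0.09 over all genes. By unadjusted edgeR p, 6 of the 10 were below 0.05, against 27.5% of all genes, and DESeq2 called 5, the same 4 and Xrcc5, against 8.20% of all genes called lower (20.2% in either direction). In RPKM, 7 genes were lower in CCR6+ with no overlap, against 45.7% of all genes, and 1, Dclre1c, was higher, against 19.8%. All comparisons with CLP use the same CLP libraries, so a shared direction is not independent.

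Markers of other cells moved with the contrast of PD-1+ and CCR6+ against CLP. For the counts in this and the next paragraph, 4.48% of all genes passed as higher and 2.84% as lower in PD-1+. In CCR6+ these shares were 6.59% and 4.79%. Erythroid markers summed to 55815 to 64699 RPKM in PD-1+ and 65696 to 80516 RPKM in CCR6+, against 2628 to 9666 RPKM in CLP; of 8 markers 1 passed in PD-1+ and 4 in CCR6+, all higher, and those in CCR6+ included the anion exchanger gene Slc4a1 and the alpha globin genes Hba-a1 and Hba-a2, which share reads. Myeloid markers summed to 16390 to 33230 RPKM in PD-1+ and 22380 to 36020 RPKM in CCR6+, against 6581 to 10412 RPKM in CLP. Much of the CLP sum came from Elane (2522 and 2323 RPKM) and Mpo (2816 and 3121 RPKM). Lyz2 stood at 6387 and 12901 RPKM in PD-1+ and 9770 and 14677 RPKM in CCR6+, against 866 and 356 RPKM in CLP. Of 9 myeloid markers the lysozyme gene Lyz2 passed as higher in both populations, and the granule genes Elane and Mpo as lower in both.

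Lymphoid markers moved in both directions. Pro-B markers summed to 250 to 301 RPKM in PD-1+ and 343 to 360 RPKM in CCR6+, against 299 to 371 RPKM in CLP: of 10, 1 passed as higher in PD-1+ and 2 in CCR6+, where Cd79b was among them, and Blnk passed as lower in PD-1+. Thymocyte markers summed to 94.97 to 144 RPKM in PD-1+ and 79.3 to 88.0 RPKM in CCR6+, against 32.9 to 72.6 RPKM in CLP. Most of the CLP sum came from Lck (29.4 and 68.4 RPKM). Lck stood at 114 and 36.2 RPKM in PD-1+ and at 24.1 and 21.5 RPKM in CCR6+. Of 7 tested, Cd3g and Cd4 passed as higher in both populations. Cd3g stood at 8.87 to 15.1 RPKM in PD-1+ and CCR6+, against 0.731 and 0 RPKM in CLP. Ptcra, the pre-T receptor chain, was at 0 in every library. The part of erythroid, myeloid, B-lineage and T-cell RNA in the fold changes was not tested.

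Other end-joining genes mostly did not pass. Of 8 analysed (Paxx was not analysed here), none passed in PD-1+ against CLP. In CCR6+ against CLP 1 passed, as higher, against 6.59% of all genes called higher. Polm, which encodes DNA polymerase mu, the closest relative of TdT, stood at 12.9 and 6.40 RPKM in PD-1+, at 1.57 and 4.32 RPKM in CCR6+, at 3.54 and 8.68 RPKM in ChILP and at 2.04 and 0.491 RPKM in CLP. Its mean was lowest in CLP, where Dntt was highest, though the CCR6+ and CLP libraries overlapped and it did not pass in any comparison (log2 fold change 3.15 in PD-1+ over CLP, SE 0.88, edgeR adjusted p = 0.0703). The list had a median log2 fold change of 0.11 in PD-1+, -0.42 in CCR6+ and 0.29 in ChILP, each over CLP.

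Within the alternative end-joining list, Parp1 passed in the same comparisons as Xrcc6. It encodes the poly(ADP-ribose) polymerase that senses breaks and competes with Ku, and it stood at 43.7 and 31.8 RPKM in PD-1+, at 24.7 and 31.0 RPKM in CCR6+, at 61.1 and 76.6 RPKM in ChILP and at 110 and 169 RPKM in CLP. It fell by 1.61 on the log2 scale in PD-1+ against CLP (SE 0.25, edgeR adjusted p = 0.0143) and by 1.98 in CCR6+ against CLP (SE 0.25, edgeR adjusted p = 0.00688), and its log2 fold change in ChILP over CLP was -0.95 (edgeR adjusted p = 0.330). None of the other 5 genes of that list passed. In the break signalling list 1 of 13 passed in each of PD-1+ and CCR6+ against CLP, Trp53, the damage-responsive tumour suppressor, which fell by 0.80 in PD-1+ (edgeR adjusted p = 0.0439) and fell by 1.30 in CCR6+ (edgeR adjusted p = 0.01003). Over all genes 2.84% passed as lower in PD-1+ and 4.79% in CCR6+ against CLP (7.32% and 11.4% in either direction). With only 1 gene of 13 called, no result about the list is read.

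In the homologous recombination list, whose products repair breaks from a sister copy, 1 of 13 passed as lower in each of PD-1+ and CCR6+ against CLP. Over all genes 2.84% and 4.79% passed as lower (7.32% and 11.4% in either direction), and again no result about the list is read. Rad54l, a DNA translocase, fell by 1.06 in PD-1+ (edgeR adjusted p = 0.0349), and Xrcc3, a recombination repair gene, fell by 1.09 in CCR6+ (edgeR adjusted p = 0.0344). Hmgb2 and Hmgb3, relatives of Hmgb1, did not pass; Hmgb2 was 1.22 and 1.82 times Hmgb1 in PD-1+, 2.45 and 2.05 times in CCR6+, 1.22 and 1.24 times in ChILP and 1.29 and 0.731 times in CLP, per length. None of 4 genes for RAG protein partners (Kpna1, Vprbp, Skp2 and Ube2s) and none of 4 neighbours of the Rag locus (Traf6, B230118H07Rik, Prr5l and Commd9) passed in any comparison.

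Proliferation genes were mixed. In PD-1+ 3 of 20 were lower than in CLP, the replication helicase genes Mcm3, Mcm5 and Mcm6, against 2.84% of all genes. In CCR6+ 3 were lower than in CLP (Mcm3, Mcm4 and Mcm6), against 4.79% of all genes, and 2 higher (Mki67 and Birc5), against 6.59%. The list summed to 1314 to 1322 RPKM in PD-1+ and 1440 to 1666 RPKM in CCR6+, against 1895 to 1933 RPKM in CLP. Of all these lists, no gene passed in ChILP against CLP other than Flt3, which is part of the gate, and none passed in PD-1+ against CCR6+.

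Regulators of Rag transcription moved in both directions. Against CLP, 2 of 17 passed as higher and 1 as lower in PD-1+, and 3 as lower in CCR6+. Over all genes, 4.48% passed as higher and 2.84% as lower in PD-1+, and 4.79% as lower in CCR6+. Myb, a factor of early lymphoid progenitors, averaged 18.2 ± 4.45 RPKM in PD-1+ and 91.4 ± 29.1 RPKM in CLP (SD, n = 2 each; log2 fold change -2.06, SE 0.25, edgeR adjusted p = 0.0106). In CCR6+ it averaged 9.67 ± 1.31 RPKM and fell by 2.89 (SE 0.26, edgeR adjusted p = 0.00471). Satb1, a chromatin organiser, and Gfi1, a repressor, were lower in CCR6+ than in CLP. Satb1 fell by 2.49 on the log2 scale (edgeR adjusted p = 0.0190) and Gfi1 fell by 2.73 (edgeR adjusted p = 0.0476). Ets1 and Lef1 were higher in PD-1+ than in CLP, by 1.78 and 2.96 on the log2 scale (edgeR adjusted p = 0.0162 and 0.0493). Ets1 stood at 67.3 and 38.2 RPKM in PD-1+ and at 13.9 and 23.1 RPKM in CLP. Lef1 stood at 21.1 and 4.41 RPKM in PD-1+ and at 1.64 and 2.22 RPKM in CLP, so most of its difference lay in PD-1+ replicate 1. The other genes of the 17, among them Ikzf1, Tcf3, Ebf1 and Foxo1, did not pass; Foxo1, a factor that activates Rag transcription, stood at 3.38 and 7.85 RPKM in PD-1+, at 6.42 and 7.53 RPKM in CCR6+, at 3.95 and 2.58 RPKM in ChILP and at 12.8 and 13.2 RPKM in CLP.

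**Figure D4:**
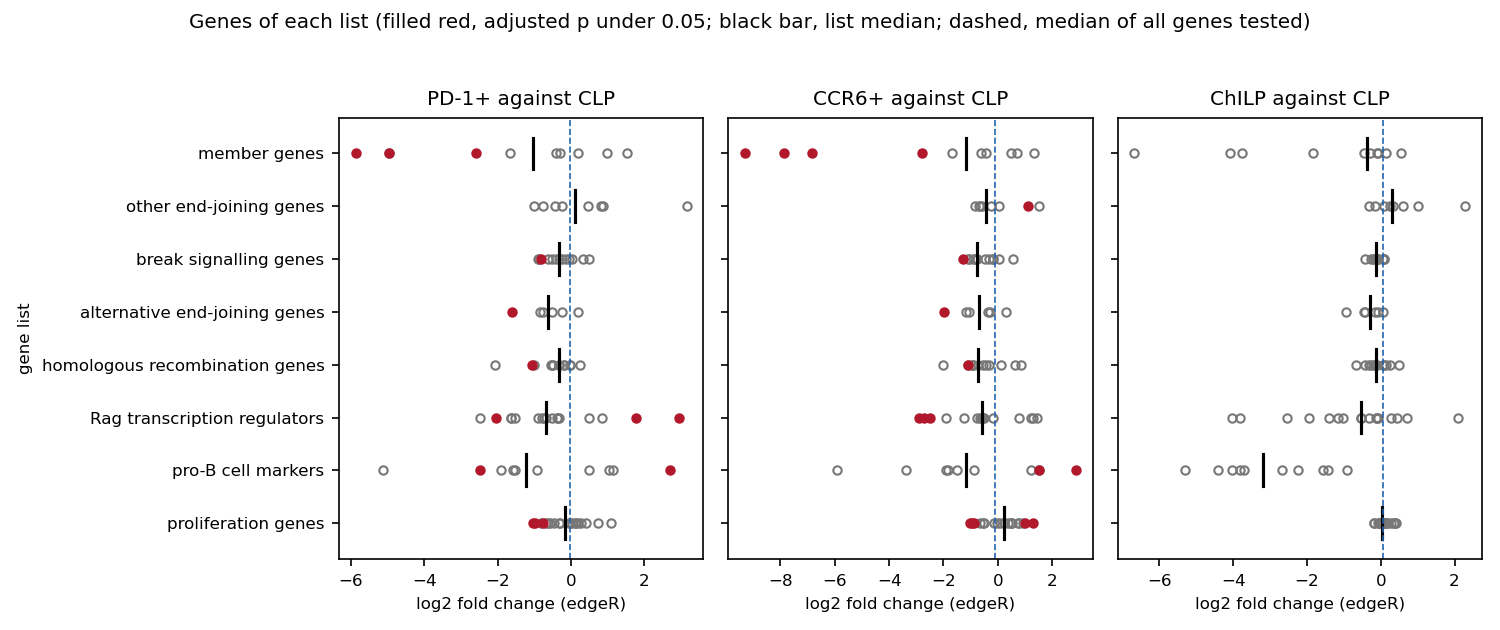
Log2 fold change (horizontal axes, each panel on its own scale) of every tested gene of 8 lists in PD-1+, CCR6+ and ChILP against CLP (edgeR), with filled red points where the adjusted p was below 0.05, a black bar at each list's median and a dashed line at the median of all genes. The members' medians are -1.04, -1.16 and -0.37, and the other end-joining genes have medians of 0.11, -0.42 and 0.29.

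Genes whose RPKM ran most like those of the recombinase genes over the 8 libraries were read off as a description, by Pearson correlation of log2(RPKM + 1) among 7927 genes (7926 for Rag2 and Dntt) with a mean of at least 5 RPKM; the 8 points share 4 populations, and the high CLP libraries set most of each value. For Rag1 the nearest were Gm5111 (r = 0.990), Flt3 (0.983), Vpreb2 (0.978), Il12a (0.975) and 1110018J18Rik (0.970). Gm5111 had no read in PD-1+, CCR6+ or ChILP, against 25.01 and 57.0 RPKM in CLP. For Rag2 they were Il12a (r = 0.994), Nsmce1, Slc35d3, H2afy and Cnn3, and Il12a, which encodes a cytokine subunit, was at 2.21 to 8.87 RPKM in PD-1+, CCR6+ and ChILP, against 78.0 and 153 RPKM in CLP. For Dntt they were Gpr97 (r = 0.991), Arpp21 (0.990), Casp2, Elovl5 and Rnf220. Il12a was named for both Rag1 and Rag2, and no gene of the Dntt list was named for either.

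Overlapping genes can share reads where the counting does not use strand, which is not given in the sources used here. By RefSeq annotation Rag2 overlaps an antisense gene (B230118H07Rik in the tables), Xrcc6 overlaps Pppde2 and Dclre1c overlaps Suv39h2, each on the opposite strand. B230118H07Rik stood at 3.37 and 0.787 RPKM in PD-1+, at 2.97 and 3.87 RPKM in CCR6+, at 6.03 and 7.34 RPKM in ChILP and at 2.97 and 5.72 RPKM in CLP, a different order from that of Rag2. Pppde2 stood at 11.2 and 12.9 RPKM in PD-1+, at 26.0 and 8.53 RPKM in CCR6+, at 17.2 and 17.2 RPKM in ChILP and at 29.2 and 30.0 RPKM in CLP. Both CLP libraries were above every other library for Pppde2, as they were for Xrcc6, and sharing of reads was not tested. Neither B230118H07Rik nor Pppde2 passed in any comparison.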

How the data were processed

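The 8 bone marrow libraries were sequenced by Smart-seq2, and the deposited tables give, per RefSeq transcript, its length, a read count and an RPKM value made by the authors. CASAVA 1.8.4, Bowtie2 2.2.2 and mm9 are listed in the submitters' processing notes, and the sources used here give no counter, strand setting or annotation release. RPKM was used for levels and the deposited counts for tests. For each symbol the transcript with the largest mean count was kept. Counts were filtered with filterByExpr (minimum count 10), scaled by TMM (factors 0.857 to 1.13) and tested with edgeR 4.0.16 in R 4.3.3 (glmQLFit, robust, 4 groups, 4 residual degrees of freedom, two-sided, Benjamini-Hochberg over 13619 genes). The common biological coefficient of variation was 0.526. The SE is the absolute log2 fold change divided by the square root of the quasi-likelihood F. Intervals and limits of 0 reads cover counting error only. The procedure was tested on simulated data.

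Alternatives were DESeq2 1.42.0, its size factors within edgeR, limma 3.58.1 on log2(RPKM + 1) and log2(RPKM + 0.1), no filter, the 4 libraries compared, summed transcripts, the longest transcript, a replicate block and each library left out. The 10 genes and the 15 gene lists, members and gate markers among them, were chosen with earlier results of these data known. All 10 genes are named. From the lists, names were taken from genes that passed and at most 4 others per list and comparison. Those others had the largest fold change and at least 5 RPKM in both libraries of the higher group. The gate marker, Hmgb and Foxo1 values, the partner and neighbour lists and the overlapping genes were named for their roles. A few genes that passed are not reported here by name. For Rag1, Rag2 and Dntt the 5 most correlated genes are named. Promoter windows are from RefSeq GRCm38.p6, whose coordinates differ from those of mm9. Libraries were numbered 1 and 2 per population.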

Additional observations from a re-analysis of the deposited data

How the results depend on the processing

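Precision is set by 2 libraries a population, and for Rag1 and Rag2 outside CLP by counts of 0 to 159 reads. Dntt and Xrcc6 passed in CCR6+ against CLP under all 14 alternatives, and Rag2, Dntt and Xrcc6 in PD-1+ against CLP under 13 of 14, the exception being the fit without CLP replicate 2. Rag1 passed in CCR6+ against CLP under 8 of 14 and Rag2 under 13 of 14. The cause of the changes below was not tested, except that leaving out libraries lowers their number.

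In ChILP against CLP, 3 genes and 0 of the 10 passed. With DESeq2 these were 263 and 3, with limma 55 and 4 (pseudocount 1) or 47 and 1 (pseudocount 0.1), without a filter 63 and 1, and with the 4 libraries compared 59 and 2. DESeq2 size factors in edgeR, summed transcripts and the replicate block each gave 0 genes, and leaving out 1 library gave 0 to 24. In PD-1+ against CCR6+, 0 genes and 0 of the 10 passed; DESeq2 gave 128 and 1, leaving out 1 library 0 to 36 genes, and leaving out both number 2 libraries, chosen after seeing the data, 5 genes. In PD-1+ against CLP, 997 genes and 3 of the 10 passed; DESeq2 gave 2302 genes, limma 2129 and 1826 genes with 5 of the 10 each, the 4 libraries compared 208 genes, the replicate block 632, and leaving out both number 2 libraries 414. Leaving out 1 library gave 8 to 811 genes (586 without PD-1+ replicate 2, 518 with CLP replicate 1 and 8 with CLP replicate 2 left out) and 0 to 5 of the 10. In CCR6+ against CLP, 1549 genes and 4 of the 10 passed; DESeq2 gave 2751 genes and limma 3109 and 2788, and leaving out 1 library gave 83 to 770 genes (459 and 655 with CCR6+ replicate 1 or 2 left out, 770 and 83 with CLP replicate 1 or 2 left out) and 2 to 3 of the 10.

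Over all genes, deviations of same-numbered libraries from their group means had correlations of 0.09, 0.08, -0.08 and -0.01. Whether same-numbered libraries shared a preparation cannot be read from these values. Single genes could differ by number: Ltf stood at 168 and 423 RPKM in PD-1+ and 176 and 464 RPKM in CCR6+. It stood at 87.1 and 5.27 RPKM in ChILP and 69.7 and 5.76 RPKM in CLP. The replicate block left the count of the 10 genes at 0, 0, 3 and 4 in the 4 comparisons. limma on RPKM without scaling shifted the median of all genes by -0.26 and -0.31 in PD-1+ against CLP and by -0.36 and -0.43 in CCR6+ against CLP.

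Only log2 fold changes that passed in no fit changed sign. Ranges over leaving out each library in turn are given in brackets. In ChILP against CLP these were Dclre1c (-0.29 to 0.51; below 0 without ChILP replicate 1 or, at -0.14, CLP replicate 2), Hmgb1 (-0.22 to 0.011, above 0 without ChILP replicate 2) and Xrcc4 (-0.38 to 0.32, above 0 without CLP replicate 2). In PD-1+ against CCR6+, Xrcc5 was at -0.0067 with DESeq2 size factors, -0.0072 with DESeq2, -0.0157 and -0.0674 with limma at pseudocounts 1 and 0.1, and -0.0533 with the replicate block, and (-1.05 to 0.64) below 0 without PD-1+ replicate 1 or CCR6+ replicate 2. In the same comparison Rag1 (-2.64 to 6.97), Prkdc (-0.32 to 0.82), Dclre1c (-1.71 to 0.32) and Xrcc6 (-0.071 to 0.49) changed sign without PD-1+ replicate 1, Prkdc also without CCR6+ replicate 1, and Dclre1c and Xrcc6 also without CCR6+ replicate 2. In PD-1+ against CLP, Xrcc4 (-0.10 to 0.60, below 0 without CLP replicate 1) was at -0.0295 and -0.0258 with limma, and Dclre1c (-0.38 to 1.68, below 0 without PD-1+ replicate 2) was at -0.43 without both number 2 libraries. In CCR6+ against CLP, Prkdc (-1.12 to 0.024) was above 0 without CCR6+ replicate 1 and Lig4 (-0.033 to 1.22) below 0 without CLP replicate 2.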
